A study of Mus musculus with 6 samples.

Results

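Gene expression levels in presomitic mesoderm of control mouse embryos were measured on 3 microarrays, which were 3 of the 6 arrays of a study of embryos lacking Taf10 in this tissue. The arrays were chosen as those titled control presomitic mesoderm at E9.5, and they are called control pools 1, 2 and 3 after their replicate numbers. Each array carried labelled cDNA from 150 ng of total RNA, taken from 3 presomitic mesoderms dissected at the stage of 17 to 19 somites and pooled. The controls were labelled WT, defined as Taf10Flox/+ or Taf10flox/flox, so at least 1 Taf10 allele carried loxP sites in these embryos; the labels do not say which of the 2 genotypes went into which pool, nor whether a Cre transgene was present. The mutant pools of the series, TCre/+;Taf10flox/flox, were not used. The labels call the pools biological replicates. Because each is already a mix of 3 embryos, the spread between pools does not show the spread between single embryos.

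The presomitic mesoderm is the unsegmented tissue on either side of the neural tube at the tail end of the embryo. It is renewed from progenitors in the tailbud, kept immature posteriorly by Wnt and FGF signals, and cut into somites at its anterior end. A molecular oscillator called the segmentation clock, built on Notch, FGF and Wnt target genes such as Lfng, Hes7 and Axin2, cycles through the tissue once per somite, with the Wnt targets out of phase with the Notch targets.

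The table held 18064 probe sets per array as linear intensities after robust multi-array averaging (RMA), which were put on a log2 scale. Of these, 16311 named a single gene, and after keeping the probe set of highest mean for each gene there were 15153 genes. The gene levels ran from 5.27 to 14.10 on the log2 scale, with a median of 8.19, a lower quartile of 6.88 and an upper quartile of 9.70. A gene's percentile is the share of all genes at or below its mean level over the 3 pools. Probe sets bind their targets with different strength, so a percentile ranks array signal and not the number of transcripts. The pools were alike, with Pearson correlations across genes of 0.9971 between pools 1 and 2, 0.9962 between pools 1 and 3 and 0.9969 between pools 2 and 3; genes are not independent replicates, and these values describe the arrays only. The range of a gene, its highest minus its lowest pool, had a median of 0.13 log2 units and a 99th percentile of 0.52. With 3 arrays, their number limits the precision of every level.

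The 9 marker genes of the presomitic mesoderm were all above the 25th percentile, and 5 of the 9 were above the 75th percentile, which by construction holds 25% of all genes. Their median percentile was 87.0. None of them had a range of 1 log2 unit or more, which only 0.185% of all genes had. Their median range was 0.19 log2 units, beside 0.13 for all genes. Msgn1, a transcription factor that starts the presomitic programme, read 12.02, 12.17 and 12.27 in pools 1, 2 and 3, a mean of 12.16 ± 0.13 (SD, n = 3) at the 98.3 percentile. Tbx6, the T-box factor that directs progenitors to a mesodermal and away from a neural fate, read 11.95, 11.90 and 12.09, at the 97.8 percentile. The Notch ligand Dll1 read 11.91, 11.84 and 11.92, and the ligand-like Notch inhibitor Dll3 read 11.72, 11.70 and 11.72. These 4 genes lay within 0.25 log2 units across the pools, with Msgn1 the most spread and Dll3 the least. Hes7, the core clock repressor, read 10.60, 10.47 and 10.55, at the 87.0 percentile.

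The other 4 markers read in the middle of the distribution. Fgf8, the main FGF ligand of the posterior tissue, read 9.35, 9.35 and 9.37, at the 69.2 percentile. Wnt3a, the Wnt ligand made in the tailbud, read 8.66, 8.63 and 8.82, at the 58.2 percentile. Both ligands are made mostly at the posterior end, and in a bulk sample fewer cells of a type and less RNA per cell cannot be told apart. Tcf15, a factor of the forming somite also called paraxis, read 9.14, 8.90 and 8.93, and Mesp2, which marks the next boundary to form, read 9.23, 8.76 and 8.64. Mesp2 had the widest range of the 9, at 0.58 log2 units, and was highest in pool 1, as was Tcf15.

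**Figure D1:**
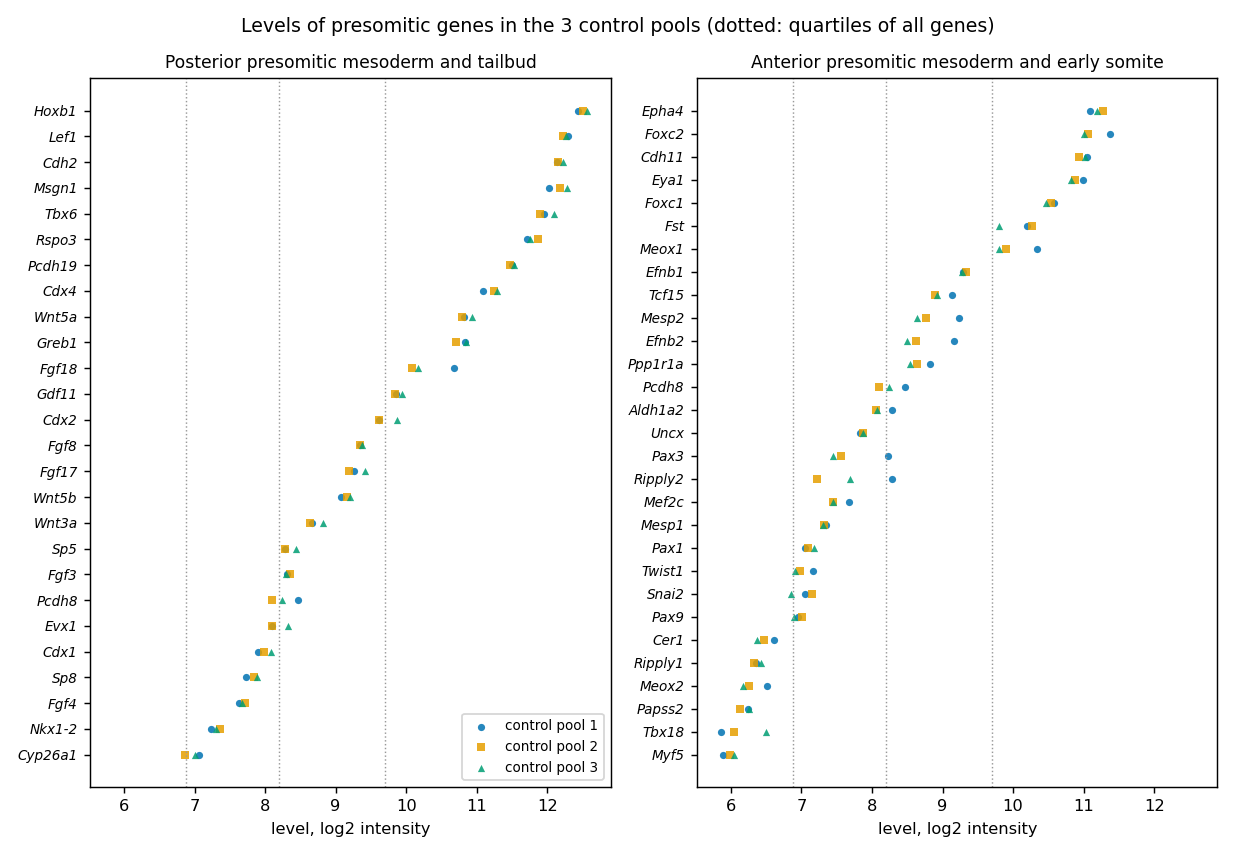
Levels (log2 intensity) of the genes of the posterior list (left) and the anterior list (right) in each control pool, 1 symbol per pool; dotted lines mark the lower quartile, median and upper quartile of all 15153 genes. The posterior genes Hoxb1, Lef1, Cdh2, Msgn1 and Tbx6 sit at the top, and Ripply2, Pax3, Mesp2 and Efnb2 on the right are highest in pool 1.

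The upstream sequences of Msgn1 and Tbx6 are shown because these genes were the highest-reading of the markers. They are the 250 bases before the RefSeq start in build GRCm38.p6, at chr12:11208949-11209198 (minus strand) and chr7:126781233-126781482 (plus strand), written 5′ to 3′ in the direction of the gene. Capitals mark matches on either strand to CTTTGA, the core letters bound by the Wnt effectors TCF and LEF, to TGGGAA, those bound by the Notch effector RBPJ, and to TATAAA, the TATA box. No match overlapped another in these sequences.
Msgn1 upstream: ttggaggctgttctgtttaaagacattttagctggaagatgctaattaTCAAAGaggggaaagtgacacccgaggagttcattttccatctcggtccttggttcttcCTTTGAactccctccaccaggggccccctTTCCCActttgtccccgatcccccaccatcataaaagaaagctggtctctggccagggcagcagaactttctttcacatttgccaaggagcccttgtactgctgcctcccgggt
Tbx6 upstream: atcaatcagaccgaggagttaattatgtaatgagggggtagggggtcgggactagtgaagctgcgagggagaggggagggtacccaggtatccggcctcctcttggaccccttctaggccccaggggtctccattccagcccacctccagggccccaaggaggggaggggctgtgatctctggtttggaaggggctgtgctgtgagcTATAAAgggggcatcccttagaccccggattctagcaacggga
The Msgn1 sequence held CTTTGA in 2 places, starting 143 and 202 bases before the start, and TGGGAA in 1 place. The Tbx6 sequence held TATAAA in 1 place, 43 bases before the start. Among 27025 RefSeq promoters of the same length, 14.1% held CTTTGA, 21.5% held TGGGAA and 13% held TATAAA. The same search of Dll1, at the first of its 2 listed starts, and of Dll3 found none of these letters. A match describes letters in a window and is not a binding site.

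A longer list of posterior and tailbud genes had 26 of its 27 members measured, and T (brachyury), the remaining member, was not analysed here. Of the 26, 12 were above the 75th percentile of level and none below the 25th, with a median percentile of 72.1. Hoxb1, an anterior-group Hox gene that is also active in the tailbud, read 12.44, 12.51 and 12.56, at the 99th percentile. Lef1, a nuclear effector of Wnt signalling, read 12.29, 12.22 and 12.27, and Cdh2, the adhesion protein N-cadherin, read 12.13, 12.16 and 12.22. These levels stood within 0.12 log2 units across the pools. Rspo3, a secreted enhancer of Wnt signalling, read 11.71, 11.87 and 11.76, and Cdx4, a caudal-type factor of axis elongation, read 11.09, 11.24 and 11.29. The 3 lowest readings of the list were those of Cyp26a1, the enzyme that degrades retinoic acid, at the 27.1 percentile, Nkx1-2 and Fgf4. Fgf18 had the widest range of the list, at 0.60 log2 units, reading 10.68, 10.08 and 10.16.

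Of the 26 posterior genes, 18 read highest in pool 3, against 44.1% of all genes. This background depends on level: pool 3 was the highest for 54.0% of genes below the 25th percentile of level and 29.7% of genes above the 75th. Some other lists had a like share highest in pool 3: 17 of 23 neural, 16 of 22 p53 pathway and 16 of 24 pluripotency genes. In others the share was lower, such as 6 of 56 cytosolic ribosomal protein genes. Among the posterior genes, Msgn1, Tbx6, Cdx1, Cdx2, Cdx4, Evx1, Wnt3a, Wnt5a, Sp5 and Sp8 were all highest in pool 3, and 1 of the 26, Fgf3, was lowest there. The differences were small, with a median range for the list of 0.16 log2 units beside 0.13 for all genes. The summed intensity of the list was 43004, 43164 and 45530 in pools 1, 2 and 3.

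Genes of the anterior presomitic mesoderm and early somite read lower as a list and varied more. Of 29 measured, 7 were above the 75th percentile and 6 below the 25th, with a median percentile of 44.6. Foxc2, a forkhead factor of paraxial mesoderm, read 11.37, 11.06 and 11.01, and its relative Foxc1 read 10.58, 10.53 and 10.47. Epha4, a receptor used in cutting the somite boundary, read 11.09, 11.27 and 11.19. Other members of the list read low: Myf5, the first myogenic factor, read 5.89, 5.98 and 6.05, Tbx18 read 5.86, 6.04 and 6.50, and Pax9 of the sclerotome read 6.95, 7.01 and 6.89.

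Several anterior genes differed between the pools. Ripply2, a repressor that Mesp2 activates at the next boundary, read 8.29, 7.22 and 7.69, a range of 1.06 log2 units and the only one of the 29 at or over 1. Such a range was seen in 28 of all genes, or 0.185%. Pax3, active in the newest somites and dorsal neural tube, read 8.22, 7.56 and 7.44. Efnb2, the boundary ligand that signals through Epha4, read 9.16, 8.62 and 8.49, and Meox1, a somite homeobox factor, read 10.34, 9.90 and 9.80. In each of these, pool 1 stood above both others. Across the list, 18 of 29 genes were highest in pool 1, against 29.6% of all genes, and 5 were highest in pool 2. The share of genes highest in pool 1 ran from 13.8% below the 25th percentile of level to 44.1% between the median and the 75th. The median deviation from the gene's mean was 0.12 log2 units in pool 1, -0.04 in pool 2 and -0.06 in pool 3, and the summed intensity was 18670, 16899 and 16204. Tbx18 went the other way, with its highest reading in pool 3. Endothelial genes were also highest in pool 1, with a summed intensity of 5491, 3181 and 3821, and their part in these readings was not tested.

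Notch pathway and clock genes read high, and their median range was 0.14 log2 units beside 0.13 for all genes. Of 42 measured, 29 were above the 75th percentile and 1 below the 25th, with a median percentile of 82.1. The receptor Notch1 read 11.80, 11.71 and 11.79, at the 97.1 percentile, and the feedback inhibitor Nrarp read 11.76, 11.58 and 11.70. Lfng, the glycosyltransferase whose cyclic activity sets Notch signalling, read 11.34, 10.94 and 10.87, highest in pool 1 with a range of 0.46. Hes1, a second clock repressor, read 9.95, 9.38 and 9.79, with pool 2 the lowest. The neural Hes gene Hes3 was the single member below the 25th percentile, at 6.53.

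The widest range in this list was that of Dkk1, a secreted Wnt inhibitor and itself a cyclic Wnt target, which read 10.96, 12.09 and 11.90, at the 96.5 percentile. Its level in pool 1 was lower by 1.14 log2 units than in pool 2, and pools 2 and 3 lay close to each other. Axin2, a cyclic Wnt target and inhibitor, read 9.53, 9.85 and 9.80, and Dact1 read 11.77, 11.91 and 11.95, so all 3 of these genes were lowest in pool 1, as were 40.3% of all genes. Other clock-linked genes were highest in pool 1 and lowest in pool 2: Efna1 read 9.74, 9.13 and 9.24, and Id1 read 10.31, 9.86 and 10.16. Snai1 read 10.59, 10.26 and 10.53, and Id2 read 10.89, 10.33 and 10.88, with pools 1 and 3 close to each other in both. Of 24 endothelial genes, 21 were also highest in pool 1 and 20 lowest in pool 2, and their part in these readings was not tested. Of the 42 genes, 22 were highest in pool 1 and 28 were lowest in pool 2, against 29.6% and 34.9% of all genes. Above the 75th percentile, where most of the list lay, 39.8% of genes were highest in pool 1.

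The signalling lists around the clock were measured at middle to high levels. FGF ligands, receptors and targets had 13 of 29 genes above the 75th percentile. Fgfr1, the main receptor of this tissue, read 11.30, 11.25 and 11.32, at the 94.5 percentile, while Fgfr3 and Fgfr4 were at the 36.9 and 30.3 percentiles. The FGF targets Spred2, Il17rd and Dusp6 were at the 94.9, 93.7 and 93.7 percentiles. Wnt ligands, receptors and targets had 23 of 43 above the 75th percentile. The effector Ctnnb1, beta-catenin, was at the 99.1 percentile, and the ligands Wnt5a and Wnt5b read at the 90.5 and 65.4 percentiles, while Wnt1, a ligand of the midbrain and dorsal neural tube, was at the 2.01 percentile. Of the genes of retinoic acid, BMP and hedgehog signalling, 13 of 40 were above the 75th percentile, led by Crabp1, a retinoic acid binding protein, at the 99.6 percentile with 12.98, 12.90 and 12.88. Aldh1a2, the enzyme that makes retinoic acid in somites, read 8.28, 8.06 and 8.07, again highest in pool 1.

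The Hox genes were ordered by position in their clusters. The 11 measured genes of groups 1 to 4 had a median percentile of 85.3, the 10 of groups 5 to 8 of 74.1, the 7 of groups 9 and 10 of 86.7, and the 9 of groups 11 to 13 of 21.3. Hox genes switch on in the order of their position in the cluster, and the last groups pattern the tail. Hoxb1, Hoxd4 (11.95, 11.88 and 11.92) and Hoxc8 (11.80, 12.02 and 11.75) gave the 3 highest signals, and Hoxc13, Hoxd12 and Hoxc11 the lowest, at means of 6.09, 6.14 and 6.27. The highest of groups 11 to 13 was Hoxd11, which read 8.77, 7.70 and 9.07.

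Hoxd11 had the widest range of the 37 Hox genes, at 1.37 log2 units, with pool 2 below both other pools. Its neighbour Hoxd10 read 9.93, 9.35 and 10.11, Hoxd1 at the other end of the cluster read 8.59, 8.24 and 8.86, and Hoxc10 read 10.85, 10.59 and 11.13. The 4 genes shared 1 order, with pool 3 highest and pool 2 lowest. In groups 11 to 13, 8 of the 9 genes were highest in pool 3, and over all Hox genes 24 of 37 were, against 44.1% of all genes. By level these groups fall where pool 3 is more often the highest, in 54.0% of genes below the 25th percentile. The order of the 4 genes is also that of the red cell genes described with the other wide ranges, and the part of blood in these readings was not tested.

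**Figure D2:**
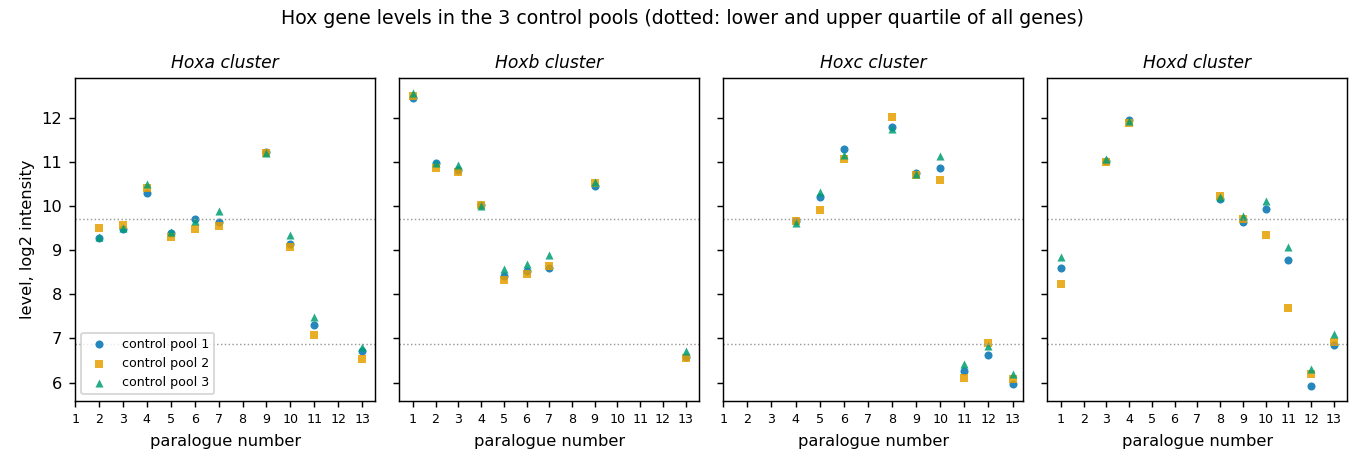
Levels (log2 intensity) of the measured Hox genes by paralogue number in each of the 4 clusters, 1 symbol per control pool; dotted lines mark the lower and upper quartiles of all genes. Signal drops from group 10 to group 11 in the Hoxa, Hoxc and Hoxd clusters, and Hoxd11 spreads from 7.70 to 9.07 over the pools.

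The tissue identity of the dissections was compared with lists for neighbouring tissues. The notochord and floor plate (13 genes measured), gut endoderm and yolk sac (24), surface ectoderm (17), endothelium (24), neural crest (11) and differentiated organs (34) had no gene above the 75th percentile, with median percentiles of 31.6, 28.3, 21.7, 33.7, 23.6 and 26.6. Cdx2, which the notochord list shares with the tailbud, lay just under that edge. The notochord genes Noto, Shh and Foxa2 read at the 23.3, 31.6 and 41.1 percentiles. Epcam, an epithelial adhesion protein, read 6.01, 6.04 and 6.01, and Esrp1, an epithelial splicing factor, was at the 1.29 percentile. The 23 neural genes had a median percentile of 33.9, with 6 below the 25th percentile and 4 above the 75th. Sox2 was at the 8.06 percentile, Tubb3 at the 9.90 and Pax6 at the 27.3, and the 4 above the 75th were Cdh2, Ncam1, Fabp7 and Zic2, of which mesoderm also uses Cdh2 and Ncam1. Among lateral plate and intermediate mesoderm genes 5 of 26 were above the 75th percentile, led by Meis2 and Osr1 at the 96.8 and 96.5 percentiles. As a scale for the floor, the 275 olfactory receptor genes had a median percentile of 9.54, with 233 below the 25th percentile and none above the 75th.

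**Figure D3:**
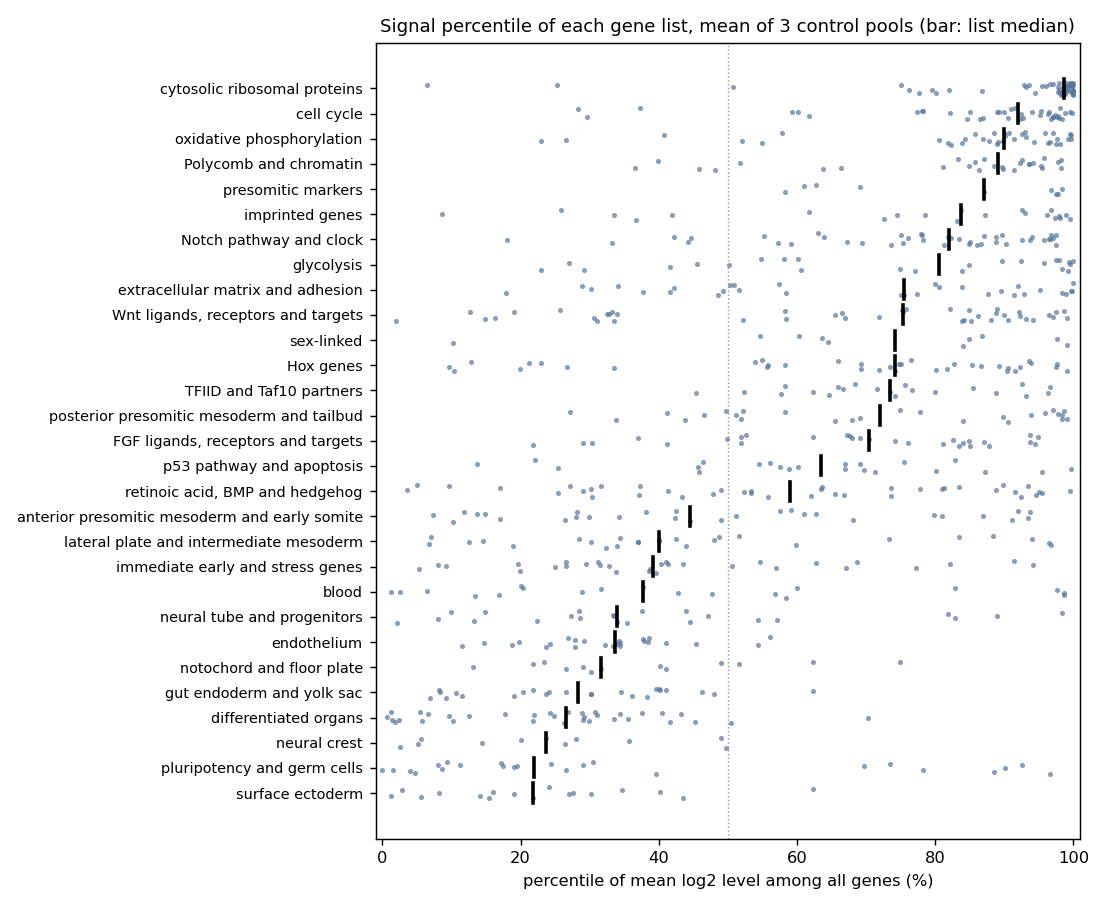
Percentile (%) of the mean level of each measured gene among all 15153 genes, by gene list, 1 point per gene, with a bar at the list median; vertical jitter carries no meaning. Ribosomal, cell cycle, oxidative phosphorylation and chromatin genes lie at the top, followed by the presomitic markers, and surface ectoderm, pluripotency, neural crest and organ genes at the bottom.

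Growth and division lists had the highest median percentiles. Of 56 cytosolic ribosomal protein genes, 53 were above the 75th percentile, with a median percentile of 98.6, and they made up 19 of the 100 highest levels; many have near-identical processed copies, so their signals may be shared. The highest level of all genes was that of Rn7sk, a small nuclear RNA that restrains transcription elongation, at 14.10 ± 0.02 (SD, n = 3). It was followed by Actb at 13.97, the histone gene H4c4 at 13.93, Eef1a1 at 13.89 and Rps6 at 13.87. The rest of the top 20 were Rny3, Txn1, Eif4a1, Rpl10, Rpl9, Tubb5, Hspa8, Rps2, Rplp0, Ldha, Rpl36, Rpl10a, Sumo2, Rpl28 and Mif. Outside the ribosomal genes, Rn7sk had 2 probe sets, Eif4a1, Hspa8 and Mif had 3 each and Sumo2 had 4. The highest was kept, so their ranks depend on that choice. Within the ribosomal list Rpl3l, a muscle form, and Rpl10l, a testis form, were at the 6.50 and 25.2 percentiles.

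Of 40 cell cycle genes, 34 were above the 75th percentile, among them Cdk4 at the 99.9 percentile, Pcna at the 99.5 and Ccna2 at the 98.8. The cell cycle inhibitors Cdkn2a and Cdkn2b were at the 28.3 and 29.6 percentiles. Of 37 oxidative phosphorylation genes 31 were above the 75th percentile. The lowest were Cox8b, Cox7a1 and Cox6a2, forms of muscle and heart, at the 22.9, 26.6 and 40.7 percentiles. Of 24 glycolysis genes 13 were above the 75th percentile. Ldha read 13.56, 13.52 and 13.51, Aldoa was at the 99.6 percentile and Pgk1 at the 99.3, while the neuronal and muscle forms Eno2 and Pgam2 were at the 23.0 and 27.1. The glucose transporter Slc2a1 was at the 98.3 percentile.

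Chromatin, imprinted and matrix genes completed the high lists. Of 28 Polycomb and chromatin genes, 21 were above the 75th percentile; Ezh2, the enzyme that methylates histone H3, read 12.07, 12.10 and 12.13, and Hmga2 read 12.10, 12.16 and 12.10. Among imprinted genes, Igf2, a fetal growth factor, read 12.94, 12.86 and 12.93, and Grb10 and Airn were at the 98.9 and 98.1 percentiles, with 13 of 21 above the 75th percentile. Fn1, the fibronectin on which somites form, read 13.17, 13.18 and 13.19, its receptor subunit Itga5 was at the 89.5 percentile, and the collagens Col1a1 and Col3a1 were at the 49.3 and 41.7. Pluripotency and germ cell genes were spread widely: Nanog, Zfp42 and Dppa3 were at the 19.5, 1.56 and 0.0066 percentiles, and Dppa3 gave the lowest level of all genes, whereas Sall4, Dnmt1 and Lin28a were at the 96.7, 92.5 and 90.2.

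TFIID is the general factor that places RNA polymerase II at promoters, and Taf10 is one of its subunits and also part of the coactivator SAGA. In the controls the higher of the 2 Taf10 probe sets read 10.77, 10.61 and 10.69, at the 88.7 percentile. The lower read 8.95, 8.89 and 8.79, a mean of 8.88, like that of Mesp2 at the 61.0 percentile. Which of the 2 better reads Taf10 was not tested, so the gene's percentile depends on the probe set. Of 21 genes of TFIID and partners, 9 were above the 75th percentile and none below the 25th. Taf6 read 11.64, 11.58 and 11.79, Taf9 11.63, 11.60 and 11.59, and Tbp, the TATA-binding subunit, 11.07, 11.07 and 11.04. The lowest percentiles were those of Taf7 at 45.4 and Taf8 at 52.3. The list's ranges stayed at or below 0.27 log2 units, with Taf6l the widest.

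The 28 genes with a range of 1 log2 unit or more, at least 2-fold between the highest and the lowest pool, were 0.185% of all genes; at a range of 1.5-fold or more there were 98, or 0.647%. Of the 28, 11 were highest in pool 1, 4 in pool 2 and 13 in pool 3, and 20 were lowest in pool 2. The sex-linked, endothelial and blood lists held 13 of the 28.

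**Figure D4:**
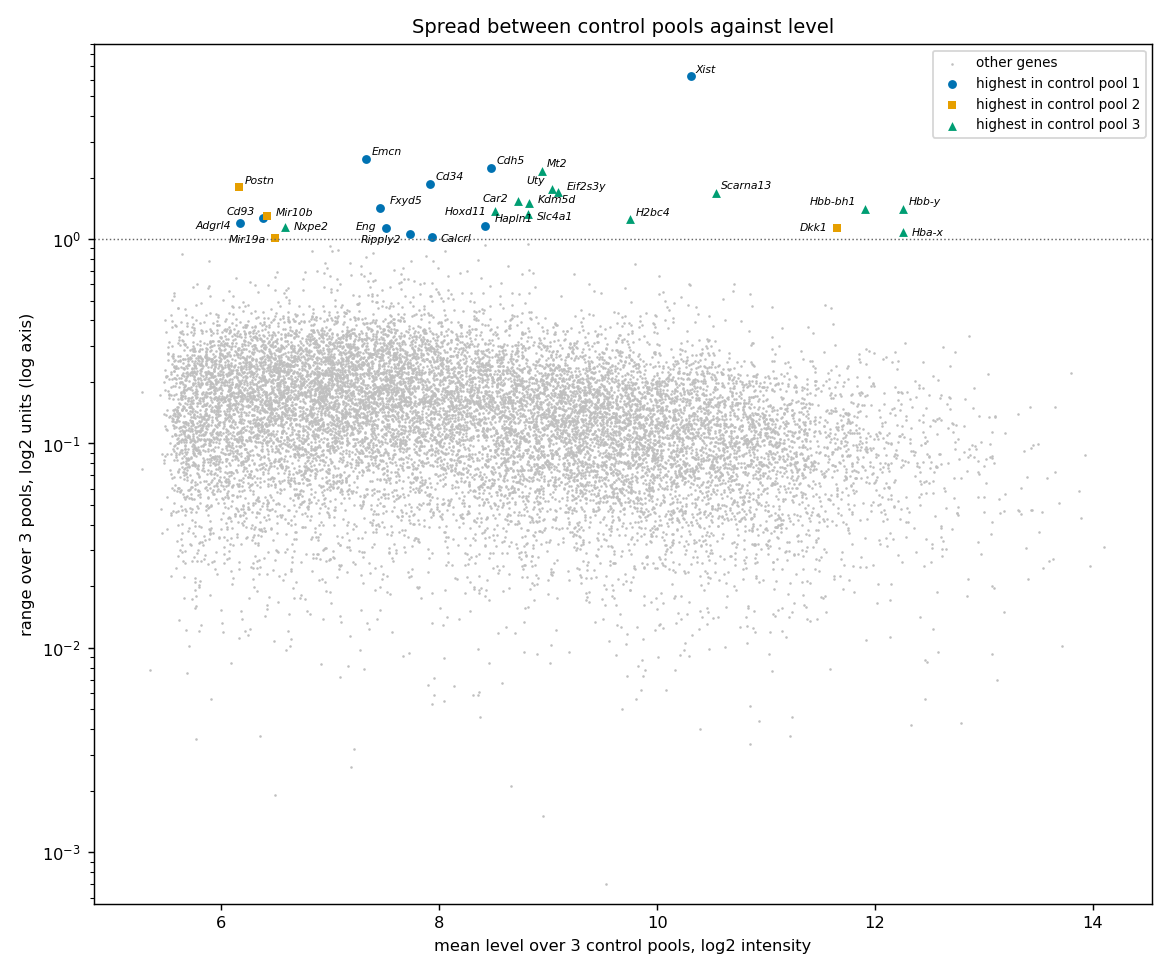
Range over the 3 control pools (log2 units, log axis) against mean level (log2 intensity) for each of the 15153 genes, with the 28 genes at or over a range of 1 (dotted line) named and marked by the pool in which they were highest. Xist stands alone at 6.26, endothelial genes such as Emcn and Cdh5 are highest in pool 1, and globin genes are highest in pool 3.

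Xist, the RNA that coats and silences the inactive X chromosome in females, read 12.57, 12.03 and 6.32, the widest range of all at 6.26 log2 units. In pool 3 it was close to the floor of the array. The Y-linked genes ran in the opposite direction: Uty read 8.07, 9.23 and 9.81, Eif2s3y read 8.12, 9.33 and 9.83, and Kdm5d read 7.96, 9.05 and 9.46. All 3 were lowest in pool 1 and highest in pool 3. Their X-linked relatives that escape silencing were lowest in pool 3: Kdm6a read 10.56, 10.44 and 10.13, Eif2s3x 12.61, 12.60 and 12.39, Ddx3x 11.97, 12.02 and 11.77, and Kdm5c 10.65, 10.46 and 10.44. The testis-determining gene Sry, read at 8.37, 8.53 and 8.55, and Uba1y, at 5.92, 6.21 and 6.24, had ranges of 0.18 and 0.32. The labels do not give the embryos' sexes, and the part of sex in the other differences between pools was not tested.

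Endothelial genes were low in level but moved together. Of the 24 genes, 21 were highest in pool 1 and 20 lowest in pool 2, and the summed intensity of the list was 5491, 3181 and 3821 in pools 1, 2 and 3. Among all genes 29.6% were highest in pool 1, and where most of the list lay this was so for fewer: 13.8% of genes below the 25th percentile and 20.8% of those between it and the median. Emcn, a vessel sialoprotein, read 8.57, 6.11 and 7.31, Cdh5, the vessel cadherin, read 9.73, 7.49 and 8.20, Cd34 read 8.96, 7.10 and 7.68, and Eng, a TGF-beta co-receptor, read 8.11, 6.98 and 7.44. These 4 had ranges over 1, and Pecam1, Esam, Ramp2, Kdr and Fli1 had ranges of 0.88, 0.82, 0.74, 0.72 and 0.72. Etv2 and Tal1, factors of the first vessel and blood progenitors, read highest in pool 3 and had ranges of 0.11 and 0.29. Outside the list, Cd93, Adgrl4 and Calcrl, also known from vessels, were among the 28 and highest in pool 1; they were chosen after their values were seen.

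Blood genes moved differently. Of 19 measured, 14 were highest in pool 3 and 13 lowest in pool 2, against 44.1% and 34.9% of all genes. The list had a median percentile of 37.7, and at such levels pool 3 was more often the highest. This was so for 54.0% of genes below the lower quartile of level and 54.9% of those between it and the median. The summed intensity of the list was 16508, 12447 and 26954 in pools 1, 2 and 3. The embryonic globin genes of primitive red cells gave strong signals: Hbb-y read 12.24, 11.57 and 12.97, Hbb-bh1 read 11.79, 11.26 and 12.67, and Hba-x read 12.14, 11.77 and 12.85, each at the 97.6 percentile or above. Slc4a1, the red cell anion exchanger, read 8.54, 8.29 and 9.61, and Car2, carbonic anhydrase, read 8.54, 8.04 and 9.58. Alas2, the first enzyme of red cell haem synthesis, read 7.83, 7.73 and 8.61, and the erythroid factors Klf1 and Gata1 read 7.19, 6.85 and 7.52, and 6.37, 6.35 and 6.70. All 8 genes had pool 3 highest and pool 2 lowest. The white cell genes Ptprc, Csf1r, Spi1 and Tyrobp read low and were not highest in pool 3. The transferrin receptor Tfrc, used by all dividing cells, read 10.19, 10.28 and 10.20. With the endothelial, blood and sex-linked lists left out, 15 genes with a range of 1 or more remained, among them Hoxd11, Dkk1 and Ripply2. The part of these cell types in other differences between pools was not tested.

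**Figure D5:**
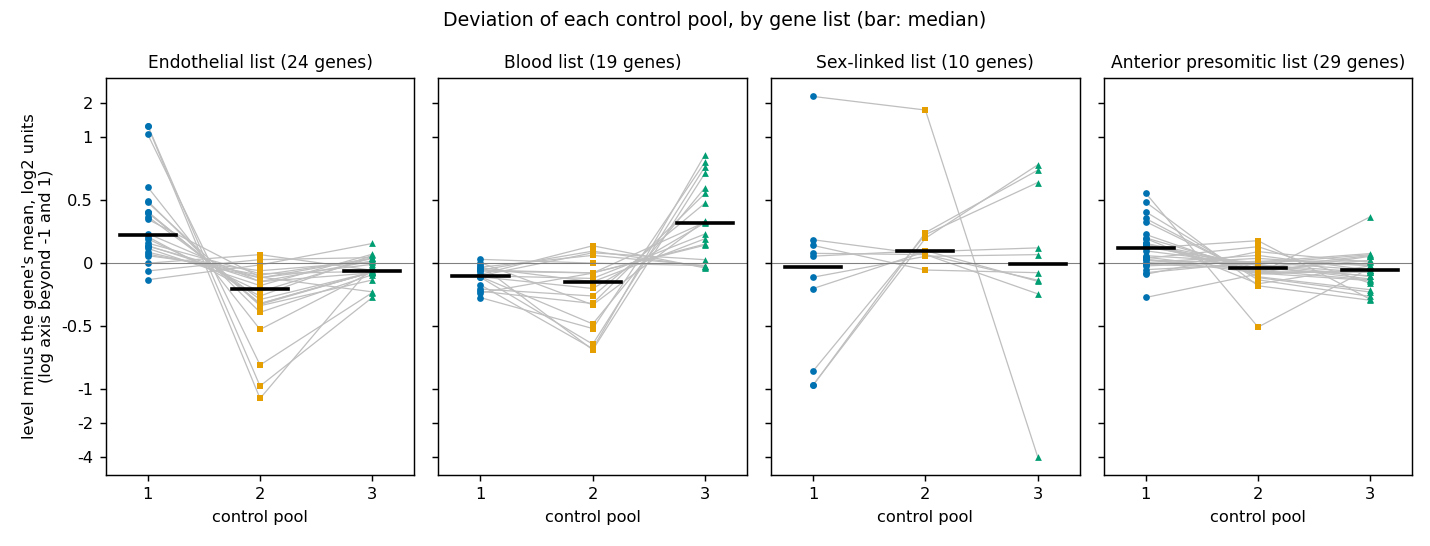
Level in each control pool minus the gene's mean over the 3 pools (log2 units, log axis beyond 1 in either direction) for the genes of 4 lists, with grey lines joining the readings of 1 gene and bars at the medians; the pools have no order. The endothelial medians are 0.22, -0.21 and -0.06 in pools 1, 2 and 3, the blood medians -0.10, -0.15 and 0.32, and the anterior presomitic medians 0.12, -0.04 and -0.06, while the sex-linked list splits in 2 directions.

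Promoters of 3 erythroid genes are shown because these genes shared 1 order across the pools. They are the 250 bases before the RefSeq start in build GRCm38.p6, at chr7:103853208-103853457 (minus strand), chr11:32276350-32276599 (plus strand) and chrX:150547167-150547416 (plus strand). Capitals mark matches on either strand to AGATAA or TGATAA, letters bound by GATA factors, to CCACCC, the CACCC box bound by Klf1, and to TATAAA or CATAAA, the TATA box and its globin form. In Hbb-y a GATA match overlaps a CATAAA match, and in Alas2 the 3 CCACCC matches overlap each other by 1 base.
Hbb-y upstream: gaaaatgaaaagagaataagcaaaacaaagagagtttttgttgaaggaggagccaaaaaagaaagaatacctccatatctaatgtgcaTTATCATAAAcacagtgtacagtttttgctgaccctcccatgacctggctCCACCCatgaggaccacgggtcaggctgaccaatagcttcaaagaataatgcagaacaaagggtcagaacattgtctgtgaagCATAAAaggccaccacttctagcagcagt
Hba-x upstream: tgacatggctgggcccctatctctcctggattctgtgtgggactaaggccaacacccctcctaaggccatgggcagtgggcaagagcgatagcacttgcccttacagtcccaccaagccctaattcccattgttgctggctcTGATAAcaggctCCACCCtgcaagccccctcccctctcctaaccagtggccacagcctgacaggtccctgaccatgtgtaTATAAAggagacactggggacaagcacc
Alas2 upstream: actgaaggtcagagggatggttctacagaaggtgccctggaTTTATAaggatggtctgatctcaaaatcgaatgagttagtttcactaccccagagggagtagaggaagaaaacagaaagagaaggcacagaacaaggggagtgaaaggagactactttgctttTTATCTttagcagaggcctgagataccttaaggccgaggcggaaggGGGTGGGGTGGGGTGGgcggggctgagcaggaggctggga
All 3 sequences held a GATA match and a CCACCC match, and the nearest TATA-type match lay 29 bases before the start in Hbb-y, 28 in Hba-x and 209 in Alas2. Of the 27025 promoters, 17.0% held a GATA match, 27.7% CCACCC, 11.1% CATAAA and 13% TATAAA. Hbb-bh1, Slc4a1 and Car2 were not among the RefSeq promoters used here.

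The remaining wide-range genes were of mixed kind. Mt2, a metal-binding stress protein, read 8.79, 7.94 and 10.10, whereas its neighbour Mt1 read 7.49, 7.42 and 7.69. Scarna13, a small Cajal body RNA, read 10.22, 9.85 and 11.54, and the histone gene H2bc4 read 9.76, 9.12 and 10.37, both highest in pool 3 and lowest in pool 2. Postn, a matrix protein, was the clearest case of pool 2 alone, at 5.66, 7.31 and 5.52. Hapln1, a hyaluronan link protein, read 9.17, 8.01 and 8.09, and Fxyd5 read 8.26, 6.84 and 7.28, both highest in pool 1. Nxpe2 read 6.31, 6.14 and 7.29.

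Genes of the p53 pathway and apoptosis were at middle levels, with 6 of 22 above the 75th percentile. Trp53inp1, a p53 target that promotes cell death, had the widest range of the list, at 8.66, 8.43 and 9.37. The p53 targets Eda2r (7.99, 7.66 and 8.16), Sesn2 (8.42, 8.32 and 8.68), Ccng1 (11.40, 11.27 and 11.61) and Phlda3 (8.59, 8.44 and 8.72) shared its order, with pool 3 highest and pool 2 lowest. In the list 16 of 22 genes were highest in pool 3 and 12 lowest in pool 2, beside 44.1% and 34.9% of all genes. Pool 3 was highest for 37.6% of genes between the median and the 75th percentile, where the list median lay. The order of these targets is also that of the red cell genes, and the part of blood in these readings was not tested. Mdm2, another p53 target, read 10.01, 10.01 and 10.05. Immediate early and stress genes, which respond to handling, were low, with 4 of 30 above the 75th percentile and a median percentile of 39.2; Fos read 6.36, 6.66 and 6.80, and Egr1 6.98, 6.83 and 7.44.

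Probe sets named for microRNA genes read precursor or host sequence and do not give the level of the mature microRNA. The 160 such genes had a median percentile of 31.1, with 61 below the 25th percentile. Mir10b and Mir19a were the 2 with a range of 1 or more, and Mir19b-1 followed at 0.93. Mature sequences are given, from RefSeq build GRCm38.p6, because Mir19a and Mir19b-1 lie in 1 cluster and share a seed; capitals mark the seed, bases 2 to 8.
miR-10b-5p: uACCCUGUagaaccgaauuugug
miR-19a-3p: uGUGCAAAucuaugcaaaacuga
miR-19b-3p: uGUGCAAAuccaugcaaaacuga
The positions are chr2:74726074-74726096, chr14:115044048-115044070 and chr14:115044358-115044380, all on the plus strand. Mir19a read 6.74, 6.87 and 5.85, and Mir19b-1 read 7.08, 7.42 and 6.49, lowest in pool 3. The other measured members of the cluster, Mir17 (6.42, 6.46 and 6.31), Mir18 (7.72, 7.80 and 7.41) and Mir20a (5.87, 6.20 and 5.60), and the host transcript Mir17hg (8.98, 8.97 and 8.58), were also lowest in pool 3, as were 29.4% of all microRNA genes and 24.8% of all genes. Mir10b, which lies in the Hoxd cluster, read 6.57, 6.99 and 5.69, with pool 3 lowest, the reverse of Hoxd10 and Hoxd11.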

How the data were processed

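Presomitic mesoderm RNA was hybridised to Affymetrix whole-transcript arrays, 1 array per pool. The authors deposited a table of linear intensity values, made with RMA per the submitters' processing notes; no header or label records its version, chip description or filter. RMA usually includes quantile normalization, under which a change in RNA content across a whole pool is not visible. Array medians were 315, 308 and 318 intensity units in control pools 1, 2 and 3. Of 18064 probe sets, 16311 named 1 gene symbol, 734 several and 1019 none in the platform annotation; 16284 matched RefSeq, with no symbol changed. Of the 15153 genes, 663 had several probe sets, with a median gap of 0.98 log2 units, and the one of highest mean was kept.

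Levels were taken as log2 intensity with no pseudocount, and mean, SD, range and percentile were computed in Python 3.11.15 with pandas 2.3.3 and numpy 2.4.6. The code was tested on simulated data. No groups were compared, so no test was made and there are no p-values. The genes named were the 9 markers, the 20 highest levels, the widest ranges, and in each of the 29 lists the 3 highest and 3 lowest members and the widest range, with all members of the Hox, Notch, posterior and anterior lists open to naming; other genes named were picked from the lists for their function after their values were seen. The members and lists were chosen with earlier results of these data known. Alternatives were other normalizations, probe set rules, a filter on low levels and leaving out each pool; the cut of 1.5-fold and the leaving out of 3 lists were added after seeing the data.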

Additional observations from a re-analysis of the deposited data

How the results depend on the processing

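No paired analysis was possible because the levels describe 1 group and come from no test. A count was taken as moved when it changed by more than 1.5-fold, and a value when it changed by its SD over the pools or more. By this rule quantile normalization, median centring and averaging linear intensities moved none of the main results. Under quantile normalization, genes highest in pool 1 went from 18 to 21 in the anterior list and from 22 to 20 in the Notch list. The median percentile of the 9 markers, 87.0, was 85.5 with all probe sets ranked, 83.8 with genes under the 20th percentile left out and 88.2 with the lowest probe set per gene. The count of 28 genes with a range of 1 or more was 45 with all probe sets ranked, which counts probe sets, and 13 to 16 with 1 pool left out, which leaves 2 pools to give a range; all of those 13 to 16 were among the 28. It was 15 without the endothelial, blood and sex-linked lists and 98 at a range of 1.5-fold, or 0.647% of genes. The lowest Pearson correlation between pools, 0.9962, was 0.9947 with the filter on low levels and 0.9962 to 0.9971 with 1 pool left out. The notochord list's count above the 75th percentile went from 0 to 1 with the lowest probe set or the mean of probe sets per gene, and was 0 to 1 with 1 pool left out, through Cdx2. That of the cytosolic ribosomal protein list went from 53 to 37 with the lowest probe set per gene. Levels near the floor of the array rest on background signal, so small differences there, as for Myf5 or Gata1, carry little weight, and with 3 pools the effects of other cell types, sex-linked genes and the array cannot be told apart.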
